A study of Mus musculus with 6 samples.

Results

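Cerebellins, neurexins and neuroligins are proteins of the synaptic cleft, and their transcripts were examined in *Kiss1* cells of the medial amygdala (MeA) of female mice with and without estradiol (E2). The rule named 9 genes by symbol, and 8 of them were among the 13886 genes of the table: *Cbln1*, *Cbln2* and *Cbln4* of 4 cerebellins, *Nrxn2* and *Nrxn3* as the neurexins, and *Nlgn1*, *Nlgn2* and *Nlgn3* as the neuroligins. *Cbln3*, the fourth cerebellin, had no row in the table. The table holds only genes that passed the study's filter on low expression, so no level can be given for *Cbln3*.

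All mice were Kiss1Cre+/Rpl22HA+/+ females, called KissRibo mice, in which Cre made by the *Kiss1* gene switches on a hemagglutinin (HA) tag on the ribosomal protein Rpl22. Tagged ribosomes were pulled down from MeA micropunches with an antibody (the RiboTag method), and the RNA bound to them was sequenced. Every female was ovariectomized (OVX) at 8 weeks of age, received E2 by capsule for 4 days so that Cre was made in the *Kiss1* cells, and then spent 7 days without E2. The OVX group received nothing more, and the E2 group received a second capsule for 5 days. Each group had 3 libraries, each from a pool of 4 brains, so the replicate error below is the spread between pools. Since the tag marks cells in which *Kiss1* drove Cre, a cell that made too little Cre was not tagged. The second capsule could also have driven Cre, in the E2 group only. Whether the tagged cells differed between the groups was not tested. Pull-downs from mice without Cre were not sequenced in the study, because their RNA was of low integrity. Transcripts of untagged cells carried along with the beads could thus not be subtracted. By RT-PCR the paper detected no *Kiss1*, *Cck* or *Avp* in those pull-downs, and no *Avp* in any pull-down. The libraries were unstranded, with scaled library sizes from 28.1M to 34.2M in the OVX group and from 30.3M to 33.99M in the E2 group.

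Cerebellins are small secreted glycoproteins of the C1q family. They gather into hexamers that hold a synapse together, with a neurexin on the presynaptic side and, for *Cbln1* and *Cbln2*, a receptor such as the product of *Grid1* on the postsynaptic side. Neurexins are presynaptic membrane receptors that also bind neuroligins directly, and neuroligins are postsynaptic adhesion proteins that set up receptors and scaffolds opposite the release site. The medial amygdala processes chemosensory and social cues, and its *Kiss1* cells are known to make more *Kiss1* mRNA under E2. In a neuron, neurexins and secreted cerebellins act mainly at the synapses it forms on other cells, and neuroligins at the synapses it receives.

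Markers of the tagged cells were looked at first. *Kiss1* has a pair of gene models in the table, and in the model called here its log2 CPM (CPM being the read count of a gene scaled by the size of its library) was 1.13 to 2.29 in OVX and 3.45 to 3.80 in E2 libraries. The E2 minus OVX difference was 1.91 (SE 0.26, adjusted p = 0.00475 by limma with a mean-variance trend). In the other model it was -5.82 to 0.10 in OVX and 2.65 to 3.18 in E2. Since *Kiss1* is known to rise under E2, its rise does not by itself show which cells were pulled down. Of the other markers chosen for these cells, *Cck* differed by 0.24 (adjusted p = 0.295 by limma, no overlap). *Cartpt* differed by 0.14 (adjusted p = 0.927, overlap), and *Esr1* was called as lower with E2 (-0.70, adjusted p = 0.0189, no overlap). Transcripts used as markers of other cell types were present as well. The values do not show which cells they came from. The paper counts *Gad1*, *Gad2*, *Slc17a7* (as *Vglut1*) and *Slc17a6* (as *Vglut2*) among the transcripts of MeA *Kiss1* cells. In the paper *Slc17a6* had a higher mean with E2 that did not pass its threshold. The summed CPM of 6 astrocyte markers was 1340 to 1724 in OVX and 1444 to 1750 in E2, with a higher mean in E2 for 6 of 6 and 0 called. For 7 oligodendrocyte lineage markers the sum was 1509 to 2110 and 1688 to 2340, with 6 of 7 higher and 0 called, and *Pdgfra*, of the precursor cells, had the smallest adjusted p of the list (difference 0.54, adjusted p = 0.0838, no overlap). For 3 markers of GABA neurons the sum was 358 to 434 and 423 to 509, with 3 of 3 higher and 0 called, and *Gad2*, a GABA-synthesizing enzyme, differed by 0.31 with no overlap (adjusted p = 0.251). For 6 microglial markers the sum was 109 to 140 and 108 to 125, and for 4 choroid plexus markers it was 680 to 1063 and 391 to 1005, with 2 of 6 and 0 of 4 markers higher. Pituitary hormone transcripts set OVX replicate 2 apart, with a log2 CPM of 9.68 for *Prl* against -1.26 to 7.76 in the other 5 libraries. For 6 transcripts chosen as markers of excitatory neurons of other forebrain areas, such as *Slc17a7* and *Neurod6*, the mean was lower with E2 for 6 of 6. Of these 0 were called (5 at an unadjusted p under 0.05), and their summed CPM was 880 to 1137 in OVX and 668 to 871 in E2. *Slc17a7* made up most of that sum. Its log2 CPM was 9.501 to 9.906 in OVX and 9.065 to 9.495 in E2. Groups overlapped for each of the other markers of this list, and *Tbr1* differed by only -0.05. In bulk samples of this kind, fewer cells of a type and less RNA per cell cannot be told apart.

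E2 treatment was compared with OVX by limma on the authors' log2 CPM, and a gene was called when its p-value adjusted over all 13886 genes was under 0.05. Of the 8 listed genes 1 was called, *Cbln4*, which rose with E2, while 0.288% of all genes were called, 0.23% as higher and 0.0576% as lower. The cerebellins had the largest differences of the 3 families. *Cbln1* also had a higher mean with E2 and *Cbln2* a lower one, although neither passed the adjusted threshold. The neurexins and neuroligins differed by at most 0.12 on the log2 scale in either direction. At an unadjusted p under 0.05 there were 3 of the 8 genes, the 3 cerebellins, against 8.56% of all genes. The 3 OVX and 3 E2 values did not overlap for 5 of the 8 genes (2 higher and 3 lower with E2), where 13.7% of all genes had no overlap, 6.85% with E2 higher and 6.82% with E2 lower. Over the 8 genes the median E2 minus OVX value was -0.06, and over all genes it was 0.00343.

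**Figure D1:**
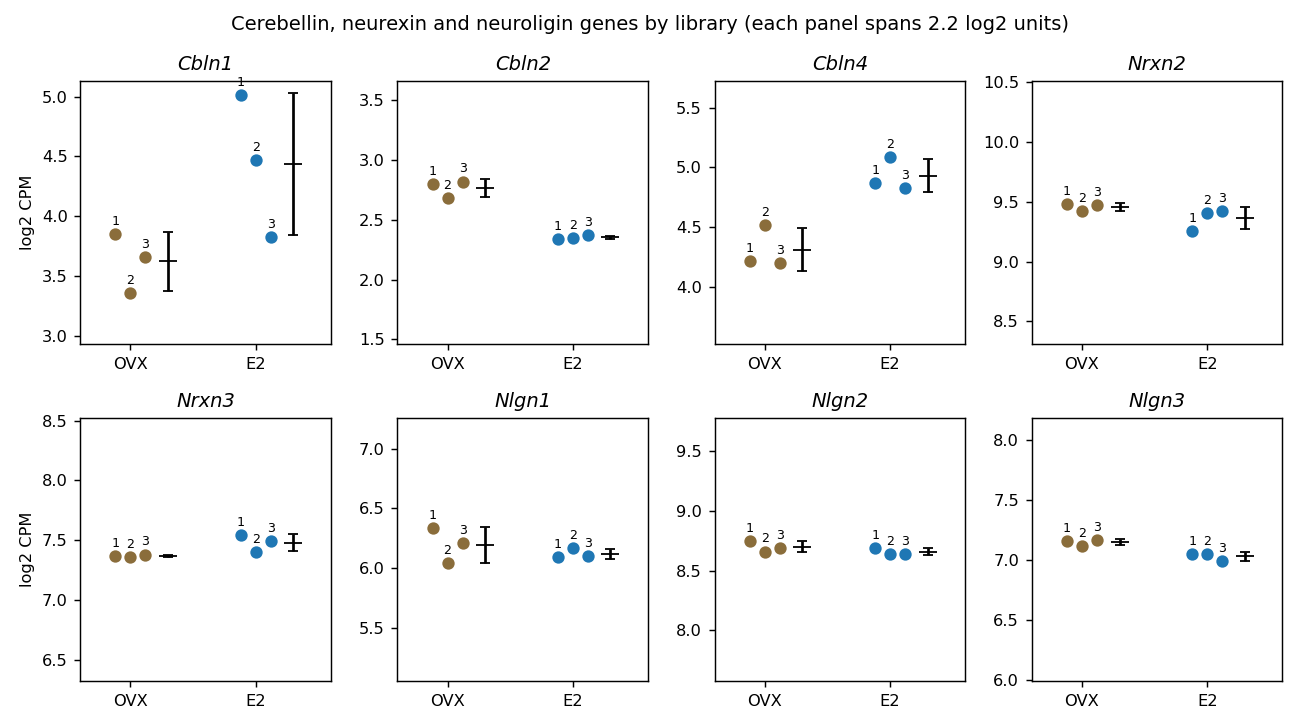
Log2 CPM (vertical axis) of each of the 8 listed genes in the 3 OVX (brown) and 3 E2 (blue) libraries, numbered by replicate, with a bar for the group mean ± SD. Each panel spans the same number of log2 units, so distances can be compared: *Cbln4* in E2 lies above every OVX library, *Cbln2* in E2 lies below, *Cbln1* is spread widely in E2, and the neurexins and neuroligins stay close to level.

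*Cbln4* (ENSMUSG00000067578) encodes the cerebellin that binds presynaptic neurexins and, on the other side, the netrin receptors Dcc and neogenin. In GRCm38 it lies on the minus strand at chr2:172036233-172043466. Its log2 CPM was 4.22, 4.52 and 4.20 in OVX replicates 1, 2 and 3. In E2 replicates 1, 2 and 3 it was 4.87, 5.09 and 4.83. The lowest E2 library was above the highest OVX library by 0.31. The OVX mean was 4.31 ± 0.18 and the E2 mean 4.93 ± 0.14 (SD, n = 3 each), a difference of 0.62 (SE 0.12, 95% interval 0.37 to 0.87) or 1.53-fold, with an adjusted p of 0.0469 by limma. That p-value lies just inside the threshold, and *Cbln4* was 33rd of all genes in order of p. In CPM the means were 19.96 and 30.6, and the estimated counts behind them were 515 to 1156 per library.

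Means were higher with E2, as for *Cbln4*, for 3 of 3 GABA neuron, 6 of 6 astrocyte and 6 of 7 oligodendrocyte lineage markers. The same held for 5 of 6 endothelial and mural, 3 of 5 striatal and 2 of 5 general neuron markers. It held for 2 of 6 microglial, 1 of 3 pituitary, 0 of 4 choroid plexus and 0 of 6 forebrain excitatory markers. Of the markers chosen for the tagged cells, *Kiss1* (in each gene model), *Cck* and *Cartpt* had higher means with E2, and *Esr1* a lower one. Any part of these cell types in the *Cbln4* result was not tested. The call for *Cbln4* depended on the fit, although its difference stayed between 0.54 and 0.72 with any library left out. Leaving out E2 replicate 2 gave the smallest value and an adjusted p of 0.247, and leaving out OVX replicate 2, the library with the most pituitary transcript, gave the largest value and an adjusted p of 0.0165. With the mean log2 level of the 6 forebrain excitatory markers as a covariate, the *Cbln4* difference was 0.56 (SE 0.18, adjusted p = 0.997). In that fit 3 genes in all were called. The covariate was 5.18 to 5.66 in OVX and 4.75 to 5.19 in E2 libraries, so it went largely with treatment. The fit could therefore hardly separate the covariate from treatment.

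The sequence before the *Cbln4* start is shown because it belongs to the 1 gene of the 8 that was called and because estrogen receptors bind DNA through pairs of the half-site GGTCA. RefSeq (GRCm38.p6) has 1 start for *Cbln4*, and the 250 bases before it are chr2:172043467-172043716, here on the minus strand, 5′ to 3′, with the half-site in capitals as its reverse complement TGACC.
*Cbln4* promoter: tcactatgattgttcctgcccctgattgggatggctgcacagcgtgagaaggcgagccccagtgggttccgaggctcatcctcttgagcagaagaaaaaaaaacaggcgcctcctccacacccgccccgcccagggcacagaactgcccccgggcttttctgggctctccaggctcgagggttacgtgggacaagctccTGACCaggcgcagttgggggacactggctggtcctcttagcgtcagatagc

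The capitals begin 51 bases before the start. GGTCA was searched for on both strands and was found in 35.2% of 32851 promoter windows of this length, so a single match is common. The palindrome GGTCANNNTGACC was in 0.0639% of the windows and in none of the windows of the 9 named genes that have one. Of these genes 5 have a window (*Cbln3*, *Cbln4*, *Nlgn1*, *Nlgn2* and *Nrxn3*), and GGTCA was in that of *Cbln4* alone. No binding was measured, and a match of letters is a description only.

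*Cbln1* (ENSMUSG00000031654, chr8:87468405-87472609, minus strand) encodes the cerebellin known from cerebellar granule cells, which secrete it at their synapses. *Cbln1* stood at a log2 CPM of 3.85, 3.36 and 3.66 in the OVX libraries and 5.01, 4.47 and 3.83 in the E2 libraries. E2 replicates 1 and 2 were above every OVX library, whereas E2 replicate 3 was just below OVX replicate 1, so the groups overlapped. The means were 3.62 ± 0.25 and 4.44 ± 0.59 (SD, n = 3 each), a difference of 0.81 (SE 0.23, 95% interval 0.32 to 1.31) that was not called (adjusted p = 0.263). This was the largest difference of the 8 genes and also the one with the most spread. Without E2 replicate 3 it was 1.12 with an adjusted p of 0.0196, and without E2 replicate 1 it was 0.53 with an adjusted p of 0.68, so single pools decided its side of the threshold.

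Within E2, the libraries ordered by *Cbln1* ran opposite to their order in the forebrain excitatory markers, whereas within OVX, replicate 1 was highest in both. The mean of these markers in log2 CPM was 4.75, 4.90 and 5.19 in E2 replicates 1, 2 and 3, and 5.66, 5.35 and 5.18 in the OVX replicates. With that mean as a covariate the *Cbln1* difference was 0.40 (SE 0.33), about as large as its error. Since the covariate went largely with treatment, this fit decides nothing about *Cbln1*.

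*Cbln2* (ENSMUSG00000024647, chr18:86711110-86718283, plus strand) encodes a cerebellin of forebrain synapses that also binds neurexins. The *Cbln2* log2 CPM was 2.80, 2.68 and 2.82 in OVX and 2.34, 2.35 and 2.37 in E2. The 3 E2 libraries were nearly equal and all below the OVX libraries, by a gap of 0.31. The means were 2.77 ± 0.08 and 2.35 ± 0.01 (SD, n = 3 each), and the difference of -0.41 (SE 0.18, 95% interval -0.80 to -0.02) was not called (adjusted p = 0.56). limma draws the spread of each gene toward that of genes at a like level, and here the SE was larger than the SD of either group. *Cbln2* was the lowest of the 8, with estimated counts of 153 to 218. With the covariate, which went largely with treatment, the difference was -0.40 (SE 0.29).

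The cerebellins can also be set against each other within a library, where the scaling of libraries plays no part. *Cbln4* minus the mean of *Cbln1* and *Cbln2*, in log2 CPM, was 0.899, 1.498 and 0.959 in OVX and 1.198, 1.676 and 1.727 in E2. The mean ratio was 1.12 ± 0.33 in OVX against 1.53 ± 0.29 with E2 (SD, n = 3 each), a difference of 0.42 (exact permutation p = 0.2, two-sided). With 3 against 3 libraries the smallest p that this test allows is 0.1. After the values were seen, each partner was also taken alone. *Cbln4* minus *Cbln2* was 1.42, 1.84 and 1.38 in OVX and 2.53, 2.74 and 2.46 in E2, with no overlap and a difference of 1.03 (exact permutation p = 0.1, 0.25 after adjustment over the 5 ratios computed). *Cbln4* minus *Cbln1* was 0.37, 1.16 and 0.54 in OVX and -0.14, 0.62 and 0.999 in E2, and its difference of -0.20 was smaller than the spread (exact permutation p = 0.7).

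On a linear scale per kilobase of the longest transcript, the listed cerebellins summed to 13.6 to 14.3 CPM per kilobase in OVX and 16.9 to 23.6 in E2. *Cbln4* made up the largest mean share of that sum in both groups, 49.2% (44.9 to 56.1 over libraries) in OVX and 51.6% (42.8 to 57.9) in E2. The share of *Cbln1* was 31.7% (26.1 to 36.0) in OVX and 38.5% (30.04 to 48.8) in E2. *Cbln2* held 19.1% (17.9 to 20.4) in OVX and 9.90% (8.43 to 12.03) in E2. The *Cbln2* share thus had no overlap between groups, and the shares of the other two overlapped. The sum and the shares rest on the values already given for the 3 genes and are a description, with no test.

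**Figure D2:**
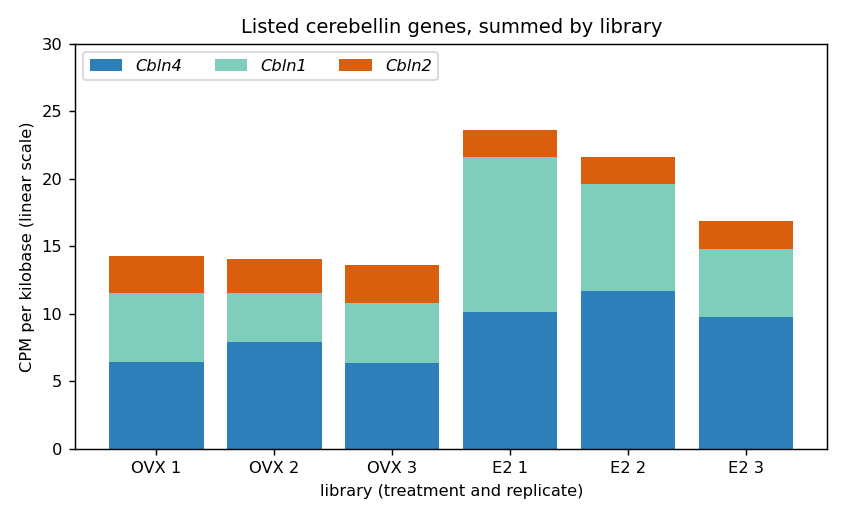
Summed level of the listed cerebellin genes in each library, as stacked bars on a linear axis in CPM per kilobase that starts at 0, with *Cbln4* (blue), *Cbln1* (green) and *Cbln2* (orange). The OVX bars reach 13.6 to 14.3 and the E2 bars 16.9 to 23.6, and the *Cbln1* segment varies most among the E2 libraries.

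Profiles most like those of the cerebellins were looked for over the 6 libraries, as the smallest root mean square difference between log2 CPM values centred on each gene's mean. For *Cbln4* these were *Gm13304* (0.0545), *Glra1*, a glycine receptor subunit (0.0850), and *Zbtb32* (0.0946), where the median over all genes was 0.359. For *Cbln2* they were *4921524J17Rik* (0.0403), *Sik2*, a salt-inducible kinase (0.0468), and *Atm*, the DNA damage kinase (0.0506), against a median of 0.247. For *Cbln1* they were *Pcdhb6*, a clustered protocadherin (0.181), *Asb4* (0.221) and *Adamtsl3* (0.229), against a median of 0.565. Profiles picked as the nearest lie below the median by the way they were picked, so the median gives only a scale. *Zbtb32*, *Adamtsl3* and *Asb4* were at low mean levels, with a log2 CPM of 0.04, 0.17 and 0.91. None of the 9 was called, with adjusted p-values of 0.144 to 0.805 by limma, and likeness over 6 libraries is a description only.

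Among the presynaptic receptors, *Nrxn2* (ENSMUSG00000033768, chr19:6418731-6544169, plus strand) encodes a neurexin with long alpha and short beta forms, which the table does not separate. *Nrxn2* stood at a log2 CPM of 9.48, 9.42 and 9.47 in OVX and 9.26, 9.41 and 9.42 in E2. E2 replicate 1 lay below the rest, and the other two E2 libraries were nearly level with OVX replicate 2, the gap between groups being 0.000691. After median centring of the libraries the groups overlapped, and 4 of the 8 genes (against 13.6% of all) then had no overlap. The difference was -0.09 (SE 0.06, 95% interval -0.22 to 0.03, adjusted p = 0.725).

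*Nrxn3* (ENSMUSG00000066392, chr12:88722876-90334935, plus strand) encodes the neurexin whose secreted and membrane forms are known for heavy alternative splicing. Its log2 CPM was 7.37, 7.36 and 7.38 in OVX and 7.54, 7.40 and 7.49 in E2. The E2 libraries were all above the OVX libraries, with a gap of 0.013. The difference was 0.10 (SE 0.06, 95% interval -0.02 to 0.23, adjusted p = 0.684).

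The means of the neurexins differed in opposite directions, and their ratio was taken within each library. *Nrxn3* minus *Nrxn2* was -2.11, -2.06 and -2.09 in OVX and -1.72, -2.01 and -1.93 in E2. All 3 E2 ratios were higher, by 0.20 in the mean, which gives the smallest p the design allows (exact permutation p = 0.1, 0.25 after adjustment over 5 ratios). E2 replicate 1 had the highest ratio, and without that library the difference was 0.11. Per kilobase, *Nrxn3* made up 16.6% (16.4 to 16.8) of the sum of the 2 genes in OVX and 18.6% (17.2 to 20.4) in E2.

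The neuroligins, on the postsynaptic side, had a lower mean with E2 for 3 of 3, and 0 were called or had an unadjusted p under 0.05. *Nlgn1* (ENSMUSG00000063887, chr3:25426215-26332460, minus strand) encodes the neuroligin of excitatory synapses. Its log2 CPM was 6.34, 6.04 and 6.21 in OVX and 6.09, 6.17 and 6.10 in E2. The E2 values lay within the OVX range, and the difference of -0.08 (SE 0.08, 95% interval -0.25 to 0.09) had an adjusted p of 0.858.

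*Nlgn2* (ENSMUSG00000051790, chr11:69823122-69837784, minus strand) encodes the neuroligin of inhibitory synapses, which gathers gephyrin and GABA receptors. For *Nlgn2* the log2 CPM was 8.75, 8.66 and 8.69 in OVX and 8.69, 8.64 and 8.64 in E2. The groups overlapped, and the difference was -0.04 (SE 0.05, 95% interval -0.16 to 0.07, adjusted p = 0.896). This interval bounds any difference in *Nlgn2* more tightly than those of the cerebellins.

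*Nlgn3* (ENSMUSG00000031302, chrX:101299168-101325963, plus strand) encodes a neuroligin found at both kinds of synapse. Its log2 CPM was 7.16, 7.12 and 7.17 in OVX and 7.05, 7.05 and 6.99 in E2, so every E2 library was below every OVX library, by a gap of 0.07. The difference was -0.12 (SE 0.06, 95% interval -0.24 to 0.00298, adjusted p = 0.6). Of the 75-base stretches of *Nlgn3* transcripts, 39.9% also occur in the transcripts of *Gm21986*, an overlapping gene on the same strand, so reads could have been divided between them. For the other 7 genes that share was 0 to 8.56%, highest for *Nlgn1*, which an antisense gene overlaps.

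*Nlgn2* and *Nlgn1* were compared as genes of inhibitory and excitatory synapses. *Nlgn2* minus *Nlgn1* in log2 CPM was 2.50 ± 0.11 in OVX and 2.54 ± 0.07 in E2 (SD, n = 3 each). The difference of 0.04 was smaller than the spread (exact permutation p = 0.8). Per kilobase, *Nlgn2* held 76.6% of the neuroligin sum in OVX and 77.4% in E2, *Nlgn3* held 17.0% and 16.3%, and *Nlgn1* held 6.38% and 6.28%.

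**Figure D3:**
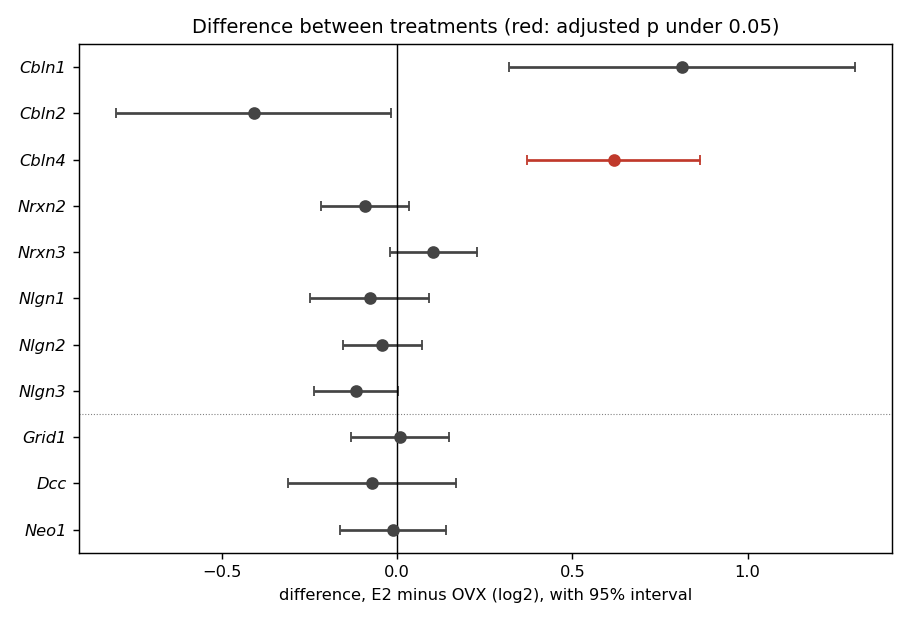
E2 minus OVX difference in log2 CPM (horizontal axis) with its 95% interval from limma for the 8 listed genes and, under the dotted line, 3 postsynaptic receptors of cerebellins. *Cbln4* (red) is the 1 gene called, at 0.62, the other cerebellins have wide intervals, and the intervals of the neurexins, neuroligins and receptors include 0.

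Levels of different genes were set side by side as log2 CPM per kilobase of the longest transcript, over all 6 libraries. *Nrxn2* was highest at 6.67 (6.53 to 6.74), above 96.3% of the 13881 genes with a known length. *Nlgn2* followed at 6.20 (6.16 to 6.27), then *Nrxn3* at 4.44 (4.37 to 4.56) and *Nlgn3* at 4.00 (3.90 to 4.07). The ranges of these 4 genes lay wholly above the median of all genes, 2.97, and did not overlap each other or those of the genes below. *Cbln4* at 3.08 (2.66 to 3.55), *Nlgn1* at 2.596 (2.48 to 2.77) and *Cbln1* at 2.54 (1.87 to 3.53) overlapped and could not be ordered. *Cbln2* was lowest at 1.21 (0.993 to 1.47), above 22.9% of genes, and its range lay under all others. The cerebellins, for which the differences between treatments were largest, were thus in the middle or lower part of the table, *Cbln4* above 52.3% and *Cbln1* above 42.4% of genes.

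**Figure D4:**
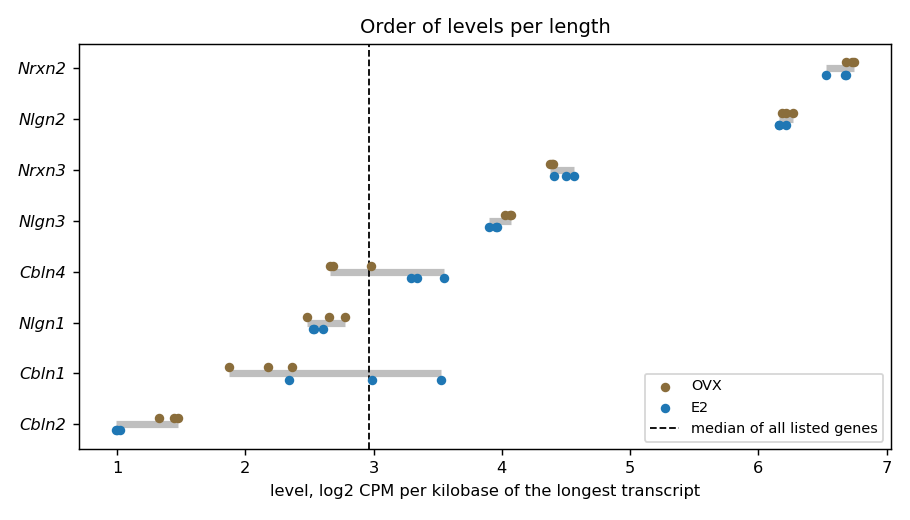
Level of each listed gene in log2 CPM per kilobase (horizontal axis), with 1 point per OVX (brown) and E2 (blue) library and a grey bar for the range over 6 libraries. The dashed line is the median of all genes with a length, 2.97, and only *Cbln4*, *Nlgn1* and *Cbln1* have ranges that overlap a neighbour's.

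Genes of the same cleft were taken from 8 lists of partners, 64 genes in all, of which 61 were in the table (*C1ql4*, *Tafa3* and *Tafa4* were not). By limma 0 of the 61 were called, where 0.288% of all genes were. An unadjusted p under 0.05 was found for 12 of the 61, a larger share than the 8.56% of all genes. The means of 19 were higher and of 42 lower with E2, where 51.1% of all genes were higher, and the median difference was -0.05. The groups did not overlap for 13 (3 higher, 10 lower), or 21.3% against the 13.7% of all genes. The smallest adjusted p was 0.358, for *Cadm4*, an adhesion molecule, with a difference of -0.18 (SE 0.06).

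For the postsynaptic receptors of cerebellins, 0 of 3 were called. *Grid1*, a receptor of the glutamate receptor family, was at a log2 CPM of 6.28 to 6.30 in OVX and 6.23 to 6.38 in E2, a difference of 0.01 (95% interval -0.13 to 0.15, adjusted p = 0.991). *Dcc*, the netrin receptor that binds *Cbln4*, had a difference of -0.07 (95% interval -0.31 to 0.17, adjusted p = 0.92), and *Neo1*, its relative neogenin, one of -0.01 (95% interval -0.16 to 0.14, adjusted p = 0.987). The groups overlapped for 3 of 3, and each upper bound lay below the lower bound for *Cbln4*.

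Of the C1q-like proteins and their receptor, relatives of the cerebellins, 4 were listed, 2 higher and 2 lower. *C1ql2* had the largest difference, 0.45 (SE 0.28, adjusted p = 0.718), with overlapping groups, and *C1ql3* had the highest level at 5.78 log2 CPM per kilobase and a difference of -0.12 (SE 0.08, adjusted p = 0.745). Among 16 other extracellular partners of neurexins 4 were higher and 12 lower, with a median of -0.08. *Fam19a2*, a secreted cytokine-like protein that binds neurexins, had the largest difference, -0.27 (SE 0.09, adjusted p = 0.4), and *Clstn1*, a calsyntenin, had the highest level, 8.57 per kilobase, with a difference of -0.14 (SE 0.06, adjusted p = 0.514). In both of these genes every E2 library was below every OVX library.

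The neuroligin modulators *Mdga1* and *Mdga2*, whose products cover neuroligins and keep neurexins off, had lower means with E2 for 2 of 2. The difference was -0.22 (SE 0.09, adjusted p = 0.47) for *Mdga2*, whose groups did not overlap, and -0.15 (SE 0.11, adjusted p = 0.772) for *Mdga1*, which was at the higher level of 2.35 per kilobase. Inside the presynaptic terminal, the scaffold genes of neurexins were lower for 4 of 6, with *Apba2* at -0.11 (SE 0.06, adjusted p = 0.678) as the largest and *Lin7b* at the highest level, 6.38 per kilobase, with -0.09 (SE 0.08, adjusted p = 0.807). Under the postsynaptic membrane, 4 of 5 neuroligin partners were lower. *Lhfpl4*, which ties GABA receptors to *Nlgn2*, differed by 0.12 (SE 0.06, adjusted p = 0.6), and *Dlg4*, the scaffold PSD-95, had the highest level, 7.11 per kilobase, and a difference of -0.04 (SE 0.05, adjusted p = 0.9).

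The splicing factors that act on neurexin transcripts decide which partners a neurexin can bind. *Khdrbs2* had a difference of 0.22 (SE 0.16, adjusted p = 0.786) and *Khdrbs3*, at the highest level of the 3 listed with 5.37 per kilobase, one of -0.01 (SE 0.06, adjusted p = 0.992). Splice forms themselves cannot be read from values per gene. Of 22 other adhesion genes that organize synapses across the cleft, 7 were higher and 15 lower, with a median of -0.05. *Slitrk6* had the largest difference, 0.63 (SE 0.35, adjusted p = 0.688), at a low level of -1.18 per kilobase, and *Cadm3* had the highest level, 6.89 per kilobase, and a difference of -0.13 (SE 0.05, adjusted p = 0.502). The difference for *Slitrk6* was as large as that of *Cbln4* with an error about 3 times larger.

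**Figure D5:**
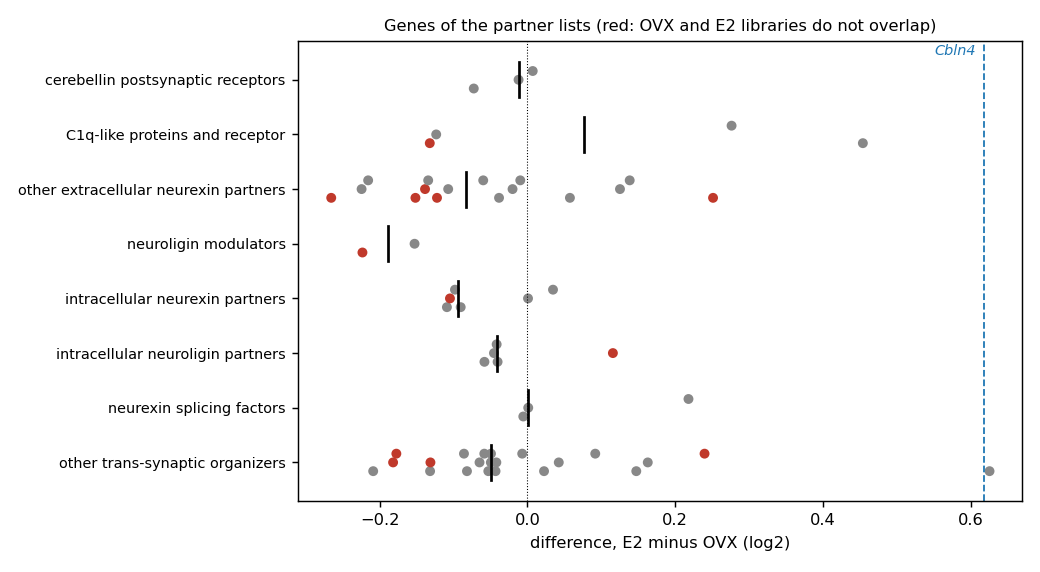
E2 minus OVX difference in log2 CPM (horizontal axis) for each listed gene of the 8 partner lists, with 1 point per gene and a black bar for the median of a list. Red points are the 13 genes whose OVX and E2 libraries do not overlap, and the dashed line marks *Cbln4* at 0.62, which only *Slitrk6* passes.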

How the data were processed

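RNA-seq libraries were made from MeA IP samples of KissRibo females, 3 OVX and 3 E2. Per the methods and the submitters' processing notes, single reads of 75 bases were trimmed (Trimmomatic 0.38, FastQC 0.11.8), aligned with STAR 2.6.0a to GRCm38 and counted with RSEM, and limited to protein-coding genes. The values used are the deposited log2 CPM, which the authors made with TMM scaling and voom. The deposited comparison file holds the authors' log2 fold change, moderated statistic (a score), p-value and adjusted p-value, and was not used.

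The log2 CPM of 13886 genes were fitted with limma 3.58.1 in R 4.3.3 (treatment only, mean-variance trend, Benjamini-Hochberg over all genes, adjusted p under 0.05, prior degrees of freedom 9.55). Counts were not in the files used, so limma with a trend took the place of voom, and counts rebuilt from the lowest value of each library served in a voom alternative. Ratios within a library used exact permutation tests in scipy 1.17.1. Intervals cover the spread between pools, which for 3 libraries per group limits the precision, with a median SE of 0.11. OVX and E2 libraries of the same number were not paired, as their deviations did not go together (correlations across genes of -0.02, -0.12 and -0.08).

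Members and lists were chosen with earlier results of these data known. The genes named were all listed members, the cerebellin receptors, any called gene of a partner list with those of largest difference and highest level (per kilobase), and the 3 profiles nearest each cerebellin. *Cadm4*, *Gad2*, *Pdgfra* and *Prl* were named after their values were seen, and 1 gene that the rule names is not reported here and was left out of the list counts. Positions and transcript lengths are from GENCODE mouse release M21 (GRCm38), promoters from RefSeq (GRCm38.p6). The alternatives were fits without the trend, with voom, median centring, quantile normalization, filters on low values, pseudocounts, a replicate block, the excitatory markers as covariate, and each library left out.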

Additional observations from a re-analysis of the deposited data

How the results depend on the processing

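Over 16 alternatives, *Cbln4* was higher with E2 in all and stayed called in 9. It lost the call without the mean-variance trend (0.62, adjusted p = 0.449 by limma), with quantile normalization (0.60, adjusted p = 0.0534) and with the excitatory markers as covariate (0.56, adjusted p = 0.997), in each of which 0 of the 8 genes were called. It was also not called without OVX replicate 1 or 3 or E2 replicate 1 or 2. With 1 library left out its difference was 0.54 to 0.72 and its adjusted p 0.0165 to 0.247, and 0 to 2 of the 8 genes were called, 2 (with *Cbln1*) without E2 replicate 3. Over all genes the count called was 40, against 0 without the trend, 3 with the covariate and 20 to 66 with 1 library left out (21 without OVX replicate 1, 26 without E2 replicate 1, 20 without E2 replicate 2 and 66 without E2 replicate 3). The fit without the trend gives every gene 1 common prior spread. The covariate went largely with treatment, so a call lost in that fit decides nothing. With voom, *Cbln4* had a difference of 0.61 and an adjusted p of 0.0479.

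With the replicate number as a block 35 genes were called, *Cbln4* had an adjusted p of 0.0367, and no other call among the 8 genes changed. The E2 minus OVX difference in the log2 ratio of *Nlgn2* to *Nlgn1* lay between -0.00920 and 0.0946 with 1 library left out and was negative without OVX replicate 1. The other 7 genes kept their direction in all 16 alternatives, and 0 of the 61 partner genes were called in any of them. Both other measures of level left 6 of 8 genes in their place. Median centring for the count of genes without overlap was chosen after seeing the data.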
